A study of Homo sapiens with 4 samples.

Results

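The integrated stress response and the unfolded protein response were followed through 39 named genes among the 57905 genes in the count files. The genes were taken by name from a list of pathway genes, and all 39 were found. 8 of them encode regulators (the eIF2alpha kinases, the sensors of the endoplasmic reticulum, ATF4 and XBP1), 24 are known targets of ATF4 or CHOP, and 7 are known targets of ATF6 or XBP1. RNA was sequenced from U87MG, an established human glioblastoma line that the labels give as wild type. Cells of 2 libraries received 50 nM chaetocin, a fungal metabolite known as an inhibitor of histone lysine methyltransferases, for 24 h, and cells of the other 2 libraries were left untreated. Chaetocin was given in DMSO and the controls are described as untreated, so an effect of the solvent and one of the compound cannot be told apart. The labels do not say that replicates came from separate cultures, so the p-values measure the spread between these libraries, which may be technical.

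The counts summed to 25918137 and 30351416 in control 1 and control 2, and to 21241984 and 32590479 in chaetocin 1 and chaetocin 2. Levels are given as CPM, in which each library's counts are brought to the same size after normalization by the TMM method, and 3 counts correspond to between 0.0844 and 0.138 CPM, a limit that covers counting error only. Differences were tested on counts with edgeR's quasi-likelihood test, with Benjamini-Hochberg adjustment over the 16416 genes that passed a filter on low counts, and a gene was called at an adjusted p under 0.05. All 39 genes passed the filter. The chaetocin libraries differed from each other more than the controls did, with a chi-square per degree of freedom over genes of 64.8 against 22.4, and chaetocin 2 had more genes with a count (27748) than the other 3 libraries (24174 to 24699). Among markers of the line, VIM, NES and CD44 were detected in every library, whereas GFAP was between 0.46 and 1.02 CPM and SOX2 and S100B had 0 counts in the controls and at most 5 with chaetocin. Leukocyte markers summed to 0.287 and 0.452 CPM in the controls and 2.25 and 2.73 CPM with chaetocin. PTPRC and ITGAM were called higher (edgeR), against 1.11% of all genes, and both calls rest on low levels. Of the 5 markers, 2 were at 0 in every library, CD3E among them. The 4 neuron markers summed to 60.4 and 53.5 CPM in the controls and 43.7 and 26.4 CPM with chaetocin, and the 2 endothelial markers found in the files to 0.860 and 1.29 CPM in the controls and 2.11 and 3.15 CPM with chaetocin. The 6 markers of the line summed to 5495 and 4791 CPM in the controls and 3221 and 1971 CPM with chaetocin. The part of these markers in the results was not tested. In bulk RNA, fewer cells of a kind and less RNA per cell cannot be told apart.

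Cells answer several kinds of stress by phosphorylating the initiation factor eIF2alpha, which lowers general translation and favours translation of the transcription factor ATF4. ATF4 then raises genes for amino acid synthesis, amino acid uptake and tRNA charging, and with its partner CHOP (DDIT3) also genes linked to cell death. Misfolded protein in the endoplasmic reticulum (ER) acts in addition through ATF6, which is released by cleavage, and through IRE1 (ERN1), which splices the XBP1 mRNA. Both raise chaperones and the machinery that removes misfolded protein from the ER. Counts per gene show mRNA levels, and neither the translation of ATF4, nor the cleavage of ATF6, nor the splicing of XBP1 can be read from them.

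The promoters of several of these genes carry the short elements that the 2 arms are known for, and the windows printed here show where these elements lie in a few members of each arm. They were taken from RefSeq on GRCh38.p14, are written 5′ to 3′ on the strand of the gene, and have the matched element in capitals. The 250 bases before each start were searched on both strands, and 34 of the 39 genes had an entry. The composite ATF4 and C/EBP element, TGATGNAA, was found in 5 of the 34 genes (14.7%), and in 3.89% of the 27305 genes with a promoter entry.
ASNS, chr7:97872444-97872501 (minus strand): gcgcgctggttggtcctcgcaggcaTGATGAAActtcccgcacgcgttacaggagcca
CHAC1, chr15:40953237-40953294 (plus strand): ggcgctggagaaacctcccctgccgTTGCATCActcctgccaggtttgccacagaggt

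CEBPG, GARS1 and HERPUD1 also held this element. The ER stress element, which is CCAAT, 9 bases and then CCACG, was found in XBP1 and CALR and in 0.0916% of all genes with an entry. The ER stress element II, ATTGG, 1 base and then CCACG, was found in HERPUD1 and SDF2L1 and in 0.0659% of all genes. HERPUD1 held matches to the elements of both arms, and they did not overlap.
XBP1, chr22:28800578-28800646 (minus strand): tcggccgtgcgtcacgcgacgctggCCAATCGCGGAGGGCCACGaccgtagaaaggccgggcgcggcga
CALR, chr19:12938359-12938427 (plus strand): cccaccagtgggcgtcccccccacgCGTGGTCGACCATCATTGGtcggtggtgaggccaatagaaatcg
HERPUD1, chr16:56931941-56932060 (plus strand): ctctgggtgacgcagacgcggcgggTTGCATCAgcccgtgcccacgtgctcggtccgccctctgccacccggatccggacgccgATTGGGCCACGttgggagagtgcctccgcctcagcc
SDF2L1, chr22:21642089-21642149 (plus strand): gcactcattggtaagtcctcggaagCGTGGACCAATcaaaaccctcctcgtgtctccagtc
TGACGTGG, an element bound by ATF6 and XBP1, was found in none of the 34 genes and in 0.78% of all genes. A match describes the letters of the window and does not show binding.

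With chaetocin, 1 of the 39 genes was called, the ER sensor ATF6, which fell. Of all genes tested, 1.85% were called, 1.11% higher and 0.743% lower. For the other fits, the share of all genes called counts both directions unless a direction is named. DESeq2 called 5 of the 39 (ATF6, XBP1, SLC38A2, HERPUD1 and SEL1L, all lower), against 5.08% of all genes. When no gene was filtered out, edgeR called 8, all lower, against 4.88% of all genes, and with at least 10 counts required in every library it called 0, against 1.34%. At an unadjusted p under 0.05, 13 of the 39 genes were lower and 1 was higher (edgeR), against 9.43% and 10.9% of all genes and 20.3% in either direction. Both chaetocin libraries lay below both controls in 15 genes and above them in 2, against 26% and 26.8% of all genes, and the groups overlapped in 22 genes. The fold change was below 0 in 33 genes and above 0 in 6, against 49.1% and 50.9% of all genes. The median log2 fold change over the 39 genes was -0.37, beside 0.0079 over all genes tested. The members took 0.794% and 0.73% of the counts in the controls and 0.705% and 0.576% in the chaetocin libraries. The 2 chaetocin libraries were unlike each other: against the control mean, the median was -0.092 in chaetocin 1 and -0.68 in chaetocin 2, and 31 of the 39 genes were lower in chaetocin 2 than in chaetocin 1, beside 8170 of the 16416 genes tested. With upper-quartile scaling edgeR called 0, against 2.03% of all genes. With the replicate number added to the model as a block, edgeR called 16, all lower, against 12.7% of all genes. This replicate block treats libraries of equal number as pairs, which no label states. The count of calls depended on single libraries, among the members and among all genes. Without control 1 it was 0, against 1.74% of all genes, and without control 2 it was 1 (ALDH1L2), against 2.1%. Without chaetocin 1 it was 26, against 17% of all genes, and 25 of these were lower, against 9.48%, with EDEM1 the 1 higher. Without chaetocin 2 it was 6, against 9.82% of all genes.

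**Figure D1:**
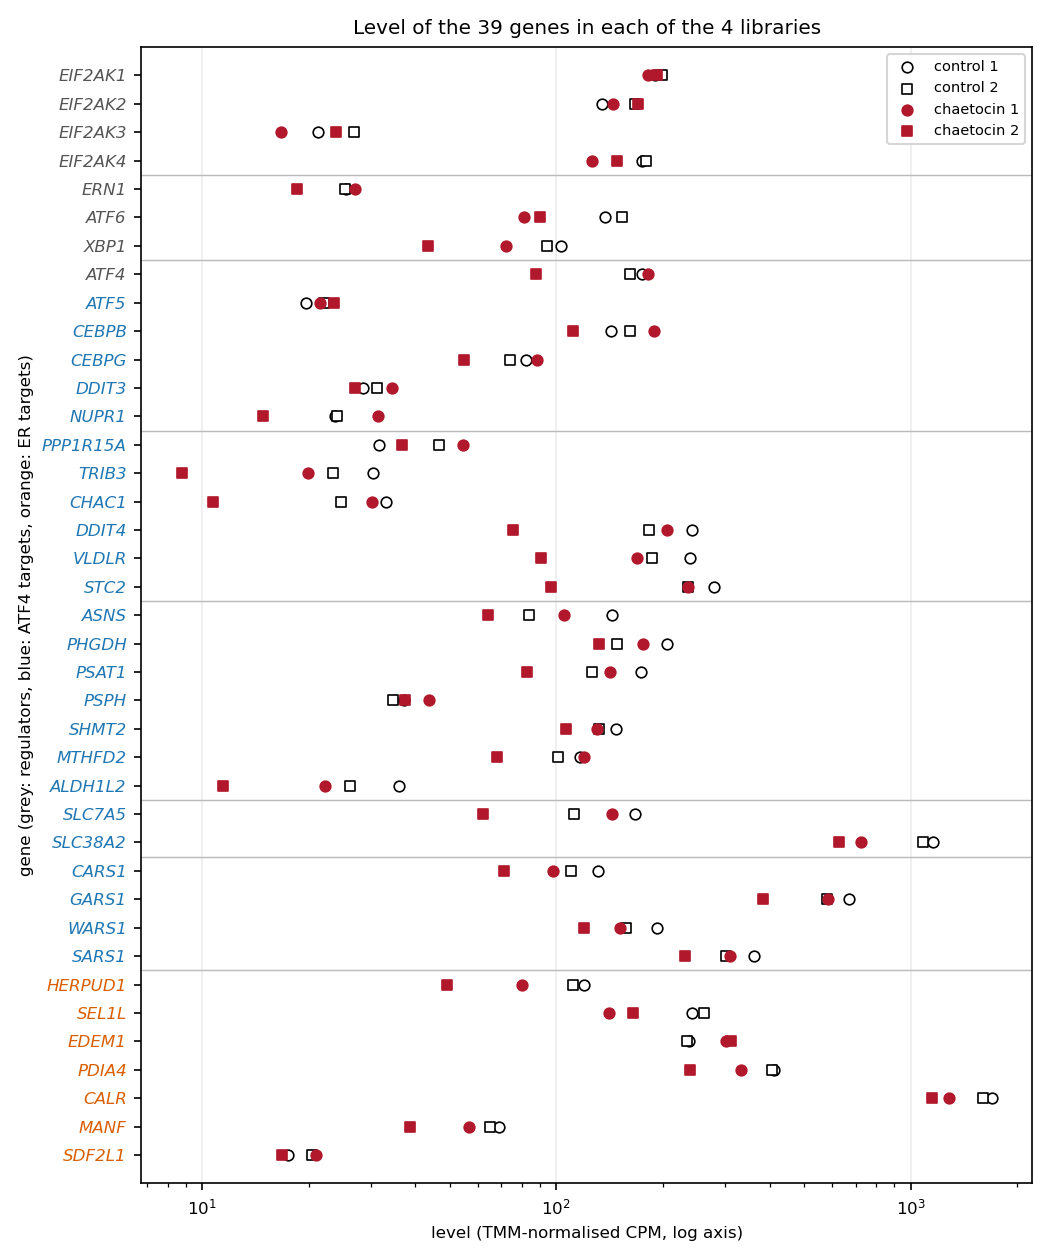
Level of each of the 39 genes in each of the 4 libraries, in TMM-scaled CPM on a log axis, with 1 point per library and the genes grouped by role. The points of ATF6 with chaetocin (81.0 and 89.9 CPM) lie below those of the controls (137 and 153 CPM), whereas for DDIT3 the 4 points lie between 27.0 and 34.4 CPM.

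ATF6, the membrane-bound factor that is cleaved in the Golgi under ER stress, was at 137 and 153 CPM in the controls and at 81.0 and 89.9 CPM with chaetocin. Both chaetocin libraries were lower than both controls by about the same amount, -0.84 and -0.69 on the log2 scale against the control mean. The fitted log2 fold change was -0.76 ± 0.148 (SE), adjusted p = 0.0466 (edgeR's quasi-likelihood test, n = 2 per group), with a 95% interval from -1.10 to -0.43. The call was lost with upper-quartile scaling (adjusted p = 0.056, edgeR), with at least 10 counts required in every library (0.0585) and without control 1 or control 2 (0.111 and 0.214). XBP1, whose spliced form drives ER-associated degradation and secretory genes, was at 103 and 94.0 CPM in the controls and at 72.2 and 43.6 CPM with chaetocin. The groups did not overlap, but chaetocin 2 was much lower than chaetocin 1, and the log2 fold change of -0.77 ± 0.228 (SE), adjusted p = 0.117, was not called (edgeR). ERN1, which encodes the IRE1 kinase and ribonuclease, was at 25.5 and 25.4 CPM against 27.1 and 18.6 CPM, and the groups overlapped (log2 fold change -0.16 ± 0.205 (SE), adjusted p = 0.712, edgeR).

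The 4 eIF2alpha kinases respond to different stresses: EIF2AK1 (HRI) to heme shortage, EIF2AK2 (PKR) to double-stranded RNA, EIF2AK3 (PERK) to ER stress and EIF2AK4 (GCN2) to uncharged tRNA. EIF2AK4 was the one whose groups did not overlap, at 175 and 179 CPM in the controls and 126 and 148 CPM with chaetocin, with a log2 fold change of -0.37 ± 0.151 (SE), adjusted p = 0.223 (edgeR). EIF2AK3 was at 21.3 and 26.9 CPM against 16.7 and 23.9 CPM, where chaetocin 1 was below both controls and chaetocin 2 between them. EIF2AK1 and EIF2AK2 had log2 fold changes of -0.055 and 0.064 with adjusted p of 0.873 and 0.874 (edgeR), and their groups overlapped. The ATF4 mRNA itself was at 175 and 162 CPM in the controls and at 181 and 87.7 CPM with chaetocin. Chaetocin 1 was above both controls and chaetocin 2 below both, and the log2 fold change was -0.33 ± 0.294 (SE), adjusted p = 0.581 (edgeR). It turned to 0.098 when chaetocin 2 was left out and to -0.94 when chaetocin 1 was left out.

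None of the 24 ATF4 or CHOP targets was called by edgeR with all 4 libraries, TMM scaling, the filter on low counts and no block. With the replicate block edgeR called 10 lower and 0 higher, against 12.7% of all genes in either direction. At an unadjusted p under 0.05, 5 were lower and 0 were higher, against 9.43% and 10.9% of all genes (edgeR). DESeq2 called 1 lower (SLC38A2) and 0 higher, against 5.08% of all genes in either direction. With no filter edgeR called 4 lower and 0 higher, against 4.88% of all genes in either direction. The median log2 fold change over the 24 genes was -0.69 without chaetocin 1 and -0.067 without chaetocin 2. It was -0.17 without control 1 and -0.50 without control 2. The transcription factors in this list, which act beside or after ATF4, all had overlapping groups. DDIT3, which encodes CHOP, was at 28.4 and 31.2 CPM in the controls and 34.4 and 27.0 CPM with chaetocin. All 4 values lay close together, and the log2 fold change was 0.039 ± 0.175 (SE), adjusted p = 0.929 (edgeR), with a 95% interval that reached from 0.778-fold to 1.36-fold. NUPR1, a small stress-induced chromatin protein, was at 23.8 and 24.0 CPM against 31.5 and 14.9 CPM, with chaetocin 1 above and chaetocin 2 below both controls. CEBPB, a C/EBP factor that pairs with ATF4, showed the same order of libraries, at 143 and 162 CPM against 189 and 111 CPM. CEBPG, another such partner, had a log2 fold change of -0.13 and ATF5, a close relative of ATF4, one of 0.11, with adjusted p of 0.795 and 0.753 (edgeR).

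The 6 genes that restrain the response, limit growth or are secreted or surface products of it had a median difference from the control mean of -0.074 in chaetocin 1 and -1.40 in chaetocin 2. TRIB3, a pseudokinase that binds ATF4 and AKT, was at 30.4 and 23.4 CPM in the controls and 19.99 and 8.78 CPM with chaetocin. Both chaetocin libraries were below both controls, chaetocin 2 by far, and the log2 fold change of -0.91 ± 0.347 (SE), adjusted p = 0.196, was not called (edgeR). CHAC1, which degrades glutathione, was at 33.1 and 24.6 CPM against 30.2 and 10.8 CPM, so that chaetocin 1 lay between the controls and chaetocin 2 below them (log2 fold change -0.51 ± 0.427 (SE), adjusted p = 0.554, edgeR). DDIT4, an inhibitor of mTORC1 signalling, followed the same order, at 242 and 183 CPM against 206 and 75.3 CPM (log2 fold change -0.60 ± 0.420 (SE), adjusted p = 0.474, edgeR). STC2, a secreted glycoprotein, was at 278 and 235 CPM against 235 and 96.5 CPM (log2 fold change -0.63 ± 0.363 (SE), adjusted p = 0.376, edgeR). For VLDLR, a lipoprotein receptor, both chaetocin libraries were below both controls, at 169 and 90.5 CPM against 239 and 187 CPM (log2 fold change -0.71 ± 0.279 (SE), adjusted p = 0.207, edgeR). PPP1R15A (GADD34), which directs dephosphorylation of eIF2alpha, was at 31.7 and 46.7 CPM against 54.5 and 36.8 CPM. Its fold change was 0.22 on the log2 scale with an adjusted p of 0.665 (edgeR), and its groups overlapped.

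Among enzymes of amino acid and one-carbon metabolism, ASNS, which makes asparagine and is a classic ATF4 target, was at 143 and 83.6 CPM in the controls and 105 and 64.0 CPM with chaetocin. Chaetocin 1 lay between the controls, and the controls differed by -0.78 on the log2 scale, more than the fitted difference of -0.42 ± 0.296 (SE), adjusted p = 0.464 (edgeR). The serine pathway enzymes PHGDH, PSAT1 and PSPH had log2 fold changes of -0.20, -0.41 and 0.18, with adjusted p of 0.628, 0.417 and 0.580 (edgeR). PSPH was the only ATF4 target with both chaetocin libraries above both controls, at 43.8 and 37.4 CPM against 37.2 and 34.7 CPM, although the lower of them exceeded the higher control by little. ALDH1L2, a mitochondrial folate enzyme, was at 36.1 and 26.1 CPM in the controls and 22.2 and 11.5 CPM with chaetocin, without overlap (log2 fold change -0.89 ± 0.305 (SE), adjusted p = 0.156, edgeR). SHMT2 and MTHFD2, which feed mitochondrial one-carbon units, had log2 fold changes of -0.24 and -0.21 with adjusted p of 0.438 and 0.681 (edgeR), and only SHMT2 had groups that did not overlap.

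Of the 2 amino acid transporters, SLC38A2, which imports small neutral amino acids, was at 1156 and 1081 CPM in the controls and 724 and 627 CPM with chaetocin. Both chaetocin libraries were below both controls, at -0.63 and -0.83 on the log2 scale against the control mean. The log2 fold change of -0.73 ± 0.182 (SE), adjusted p = 0.0808 (edgeR), was the nearest to the threshold among the ATF4 targets. SLC7A5, the light chain of the large neutral amino acid exchanger, was at 167 and 112 CPM against 144 and 62.2 CPM, and chaetocin 1 lay between the controls (log2 fold change -0.44 ± 0.372 (SE), adjusted p = 0.551, edgeR). The 4 tRNA synthetases CARS1, WARS1, GARS1 and SARS1 had log2 fold changes of -0.51, -0.37, -0.37 and -0.29. Their adjusted p ran from 0.183 for CARS1 to 0.433 for SARS1 (edgeR). Both chaetocin libraries were below both controls for CARS1, at 98.2 and 71.4 CPM against 131 and 110.3 CPM, and for WARS1, at 151 and 119.8 CPM against 192 and 157 CPM. Over the 24 targets, the upper end of the 95% interval ran from 0.807-fold to 1.71-fold of the control level, the highest being that of PPP1R15A.

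**Figure D2:**
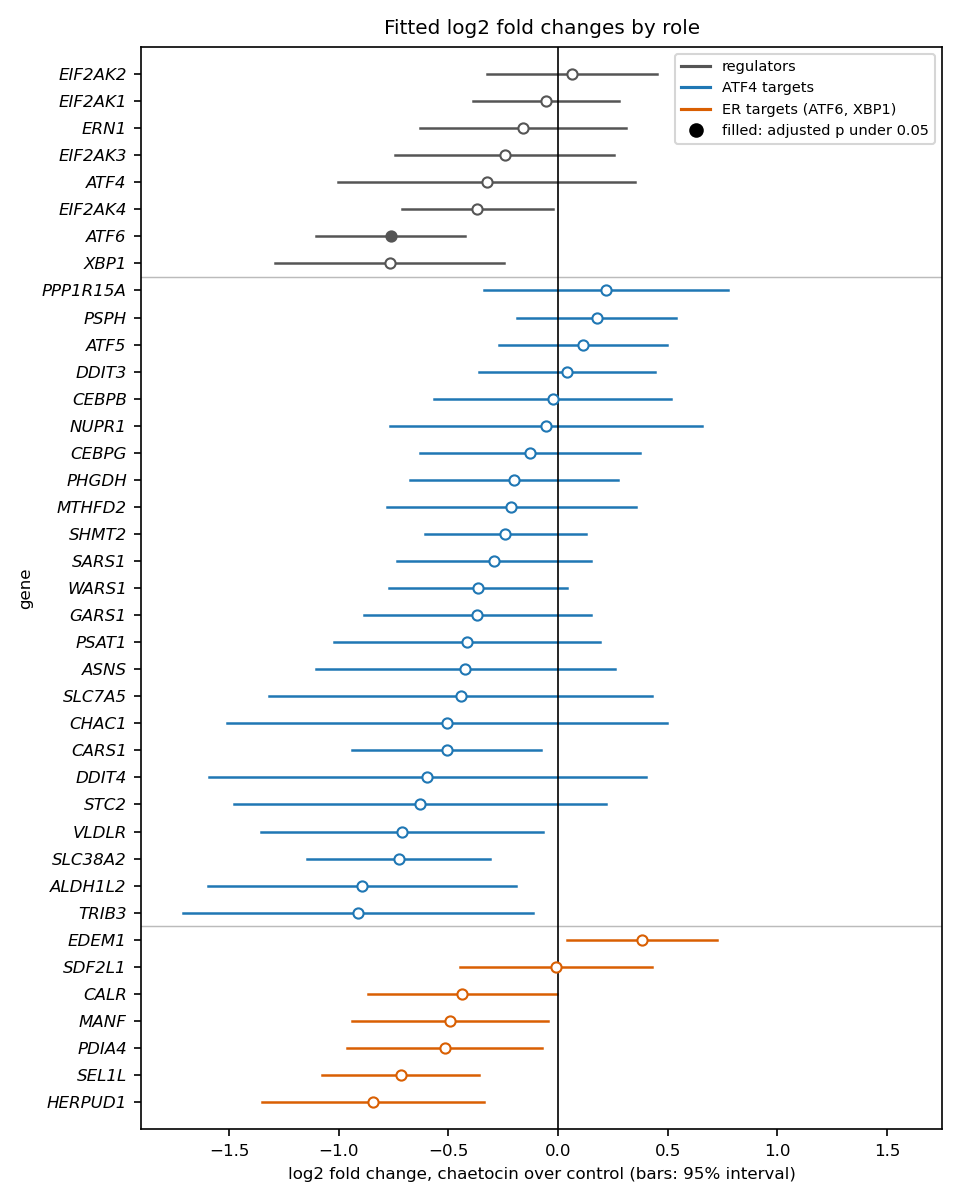
Fitted log2 fold change of chaetocin over control for the 39 genes with 95% intervals (edgeR, n = 2 libraries per group), grouped by role, with filled points for an adjusted p under 0.05. ATF6 at -0.76 is the only filled point, and the intervals of most ATF4 targets cross 0.

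None of the 7 targets of ATF6 or XBP1 was called by edgeR under the same conditions, without a block. With the replicate block edgeR called 4 lower and 0 higher, against 12.7% of all genes in either direction. At an unadjusted p under 0.05, 5 were lower and 1 was higher, against 9.43% and 10.9% of all genes (edgeR). DESeq2 called 2 lower (HERPUD1 and SEL1L) and 0 higher, against 5.08% of all genes in either direction. With no filter edgeR called 2 lower and 0 higher, against 4.88% of all genes in either direction. The median log2 fold change over the 7 genes was -0.61 without chaetocin 1 and -0.30 without chaetocin 2. It was -0.46 without control 1 and -0.54 without control 2. HERPUD1 and SEL1L belong to the complex that passes misfolded protein out of the ER for degradation. HERPUD1 was at 119.6 and 112 CPM in the controls and 79.9 and 49.3 CPM with chaetocin, and its log2 fold change was -0.84 ± 0.221 (SE), adjusted p = 0.0882 (edgeR). SEL1L was at 241 and 261 CPM against 141 and 164 CPM, with a log2 fold change of -0.72 ± 0.157 (SE), adjusted p = 0.0586 (edgeR). In SEL1L the 2 chaetocin libraries were close to each other, whereas in HERPUD1 chaetocin 2 was well below chaetocin 1. EDEM1, a lectin that marks misfolded glycoproteins for the same degradation, had the opposite order, at 237 and 234 CPM in the controls and 302 and 312 CPM with chaetocin. Both libraries were higher by a like amount, 0.36 and 0.41 on the log2 scale, with a log2 fold change of 0.38 ± 0.149 (SE), adjusted p = 0.204 (edgeR).

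For 3 of the 4 chaperones and folding proteins of the list, both chaetocin libraries lay below both controls. CALR, a calcium-binding lectin chaperone, was at 1692 and 1599.6 CPM against 1285 and 1147 CPM (log2 fold change -0.44 ± 0.188 (SE), adjusted p = 0.241, edgeR). PDIA4, a disulfide isomerase, was at 411 and 406 CPM against 333 and 238 CPM (log2 fold change -0.52 ± 0.194 (SE), adjusted p = 0.190, edgeR). MANF, a small secreted ER protein, was at 69.0 and 65.0 CPM against 56.7 and 38.7 CPM (log2 fold change -0.49 ± 0.195 (SE), adjusted p = 0.208, edgeR). SDF2L1, a cochaperone of BiP, was the exception, at 17.5 and 20.4 CPM against 21.0 and 16.8 CPM, and its log2 fold change of -0.011 changed sign with upper-quartile scaling and with the stricter filter of at least 10 counts in every library. Per transcript length, CALR had the highest level of the 39 genes in the controls, 2148 TPM, in which counts are divided by exon length before scaling, and ERN1 the lowest, 8.30 TPM. SLC38A2 followed CALR at 600.2 TPM.

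**Figure D3:**
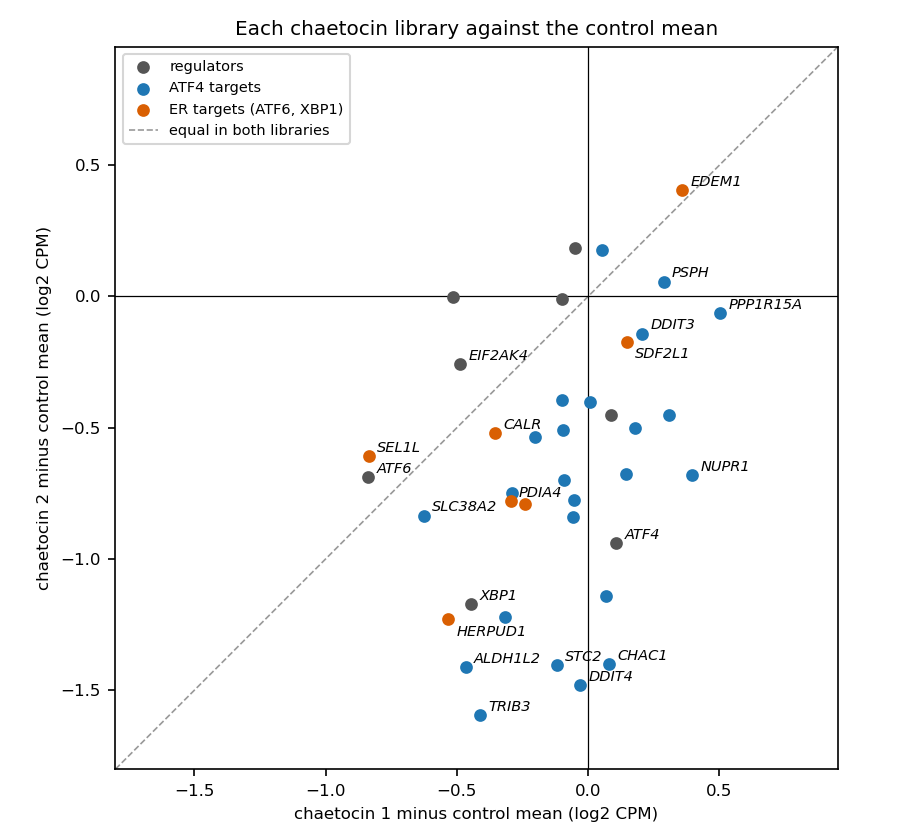
Difference of each chaetocin library from the control mean, on the log2 CPM scale, with chaetocin 1 on the horizontal and chaetocin 2 on the vertical axis and 1 point per gene. ATF6, SEL1L and EDEM1 lie near the line of equal differences, whereas CHAC1, DDIT4 and ATF4 lie near 0 for chaetocin 1 and at -1.40, -1.48 and -0.94 for chaetocin 2.

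The arms were then compared within each library. In chaetocin 1 the median difference from the control mean was -0.042 over the ATF4 targets and -0.30 over the ER targets, and in chaetocin 2 it was -0.69 and -0.61. The ATF4 median minus the ER median was therefore 0.25 in chaetocin 1 and -0.082 in chaetocin 2, of opposite sign. Between the controls themselves, control 2 minus control 1, it was -0.23. Over the 4 pairs of a chaetocin and a control library, which share libraries, it ran from -0.23 to 0.44. The fitted medians were -0.37 for the ATF4 targets and -0.49 for the ER targets, and their difference of 0.13 was smaller than the SD of 0.238 between the chaetocin libraries (n = 2). The ATF4 median depended on the library used, at -0.067 without chaetocin 2 and -0.69 without chaetocin 1. The ER median was -0.30 and -0.61 under the same omissions.

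The spread of the ATF4 targets was also present without treatment. Control 2 was lower than control 1 in 19 of the 24 ATF4 targets, with a median of -0.24, and in 5 of the 7 ER targets, with a median of -0.018, beside 8013 of all 16416 genes. The summed level of the ATF4 targets was 4686 and 4007 CPM in the controls and 3829.9 and 2547 CPM with chaetocin. That of the ER targets was 2787 and 2698 CPM in the controls and 2218 and 1966 CPM with chaetocin, so that the controls differed from each other less than from the chaetocin libraries. A list of 18 genes known to be raised by hypoxia-inducible factor also differed between the controls and between the chaetocin libraries. It was lower in control 2 than in control 1 in 18 of 18 genes, and its median difference from the control mean was -0.086 in chaetocin 1 and -0.68 in chaetocin 2. The hypoxia list summed to 13195 and 9719 CPM in the controls and 11542 and 6373 CPM with chaetocin, and its part in the differences of the ATF4 targets was not tested.

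**Figure D4:**
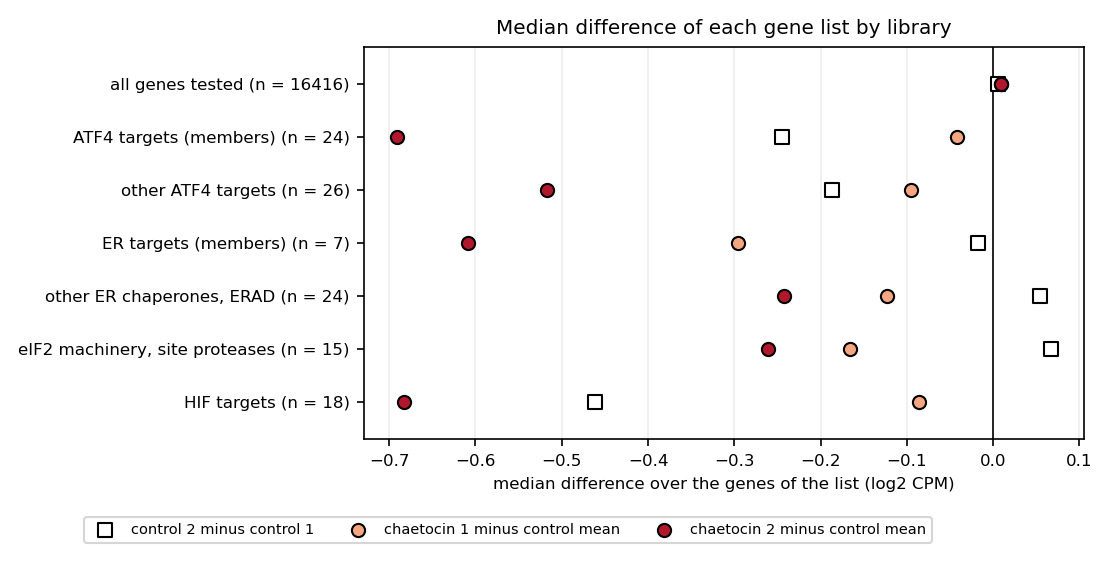
Median difference over each gene list, on the log2 CPM scale, for control 2 minus control 1 and for each chaetocin library minus the control mean, with all 16416 genes tested as the first row. The ATF4 targets and the hypoxia-inducible factor (HIF) targets lie at -0.69 and -0.68 in chaetocin 2 and nearer to 0 in chaetocin 1, and the controls also differ in both lists.

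Further genes of the same pathways, outside the 39, were called. Among 24 other ER chaperones and degradation genes, 2 fell, HSPA5 and SEC24D, and 0 rose, against 0.743% and 1.11% of all genes. HSPA5 encodes BiP, the chaperone that holds the ER sensors inactive, and its promoter window has the ER stress element.
HSPA5, chr9:125241366-125241434 (minus strand): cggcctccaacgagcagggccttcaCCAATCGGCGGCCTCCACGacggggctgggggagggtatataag
HSPA5 was at 1491 and 1359 CPM in the controls and 782 and 615 CPM with chaetocin, a log2 fold change of -1.03 ± 0.200 (SE), adjusted p = 0.0466 (edgeR). SEC24D, a coat protein of the vesicles that leave the ER, was at 153 and 141 CPM against 89.7 and 83.8 CPM, a log2 fold change of -0.76 ± 0.143 (SE), adjusted p = 0.0427 (edgeR). In both genes the chaetocin libraries lay below both controls, and both calls were lost with upper-quartile scaling (adjusted p = 0.0519 and 0.0544, edgeR). They were also lost with the stricter filter and without either control. DNAJB9, another cochaperone of BiP and a target of XBP1, was at 33.8 and 34.0 CPM against 29.2 and 25.6 CPM (log2 fold change -0.31 ± 0.156 (SE), adjusted p = 0.314, edgeR). The median over these 24 genes was -0.18, with 12 below and 2 above both controls in both chaetocin libraries, against 26% and 26.8% of all genes. DESeq2 called 4 of them lower and 0 higher, against 5.08% of all genes. With the replicate block edgeR called 6 lower and 0 higher, against 12.7% of all genes. The edgeR counts were 7 lower and 1 higher without chaetocin 1, against 17% of all genes, and 6 lower and 1 higher without chaetocin 2, against 9.82%.

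Among 26 other ATF4 targets tested, 2 rose and 0 fell (edgeR without a block), against 1.11% and 0.743% of all genes. At an unadjusted p under 0.05, 3 were higher and 8 lower (edgeR), against 10.9% and 9.43% of all genes. With the replicate block edgeR called 3 higher and 5 lower, against 12.7% of all genes in either direction. The log2 fold changes ran from -1.75 to 1.22. The median was -0.37, and 20 of the 26 fold changes were below 0, against 49.1% of all genes. Against the control mean, the median was -0.096 in chaetocin 1, with 14 of the 26 below 0, and -0.52 in chaetocin 2, with 20 below 0. Both chaetocin libraries lay below both controls in 12 of the 26 and above them in 4, against 26% and 26.8% of all genes. DESeq2 called 3 higher and 1 lower of 27, against 5.08% of all genes, and without chaetocin 1 edgeR called 3 higher and 11 lower of 26, against 17%. Without chaetocin 2 it called 3 higher and 0 lower of 26, against 9.82% of all genes. Both genes that rose encode the cystine and glutamate exchanger, SLC7A11 its transporting chain and SLC3A2 the heavy chain that it shares with SLC7A5. SLC3A2 was at 182 and 181 CPM in the controls and 389.8 and 455 CPM with chaetocin, a log2 fold change of 1.22 ± 0.162 (SE), adjusted p = 0.0266 (edgeR). SLC7A11 was at 143 and 116 CPM against 218 and 248 CPM, and its adjusted p of 0.0496 (edgeR) went to 0.0512 with RLE scaling and to 0.0562 with the stricter filter, but to 0.0413 with upper-quartile scaling and to 0.00162 with DESeq2. It was 0.0824 without control 1 and 0.333 without control 2. ATF3, a stress-induced repressor and ATF4 target, narrowly missed the threshold, at 15.4 and 12.7 CPM against 26.3 and 25.6 CPM (log2 fold change 0.89 ± 0.177 (SE), adjusted p = 0.0503, edgeR). ATF3 was called with upper-quartile scaling (adjusted p = 0.0429, edgeR), with no filter on low counts (0.0014, edgeR) and with DESeq2 (0.00845), and its adjusted p ran from 0.00353 to 0.292 when 1 library was left out (edgeR). In these 3 genes both chaetocin libraries lay above both controls.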

How the data were processed

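Single-end reads of polyadenylated RNA from 4 libraries were processed by the authors. The submitters' processing notes name cutadapt, TopHat2, TopHat and SAMtools and the build GRCh37. The counting tool, its annotation and its strand setting are not given in the sources used here, so reads of overlapping and antisense genes may be shared. The values deposited are counts, whole numbers of reads per Ensembl gene without normalization. Symbols were matched through GENCODE v29 for 52338 of 57905 identifiers. Counts on annotated pseudogene copies of the members were at most 0.144% of a member's counts. In R 4.3.3 with edgeR 4.0.16, genes were filtered by filterByExpr (minimum count 10), scaled by TMM, and tested by the quasi-likelihood test with a robust fit and no block, with Benjamini-Hochberg adjustment over 16416 genes. Log2 CPM of single libraries used a prior count of 2. TPM was computed from the counts and GENCODE exon lengths. DESeq2 1.42.0, other scalings and filters, a replicate block and leaving out each library were alternatives. The fit was tested on simulated data, with changes placed in genes well above the filter on low counts. It called 66% of the 2-fold and 99% of the 4-fold changes, and 9 of the 174 genes called were unchanged. Smaller changes were not simulated, so a gene not called is not shown to be unchanged. PCR duplicates were not marked by molecular identifiers, so limits on low counts cover counting error only. Groups and replicate numbers came from the sample labels. The members and the other gene lists were chosen with earlier results of these data known. The named genes are all 39 members and, of the other pathway lists, each called gene, with HSPA5, DNAJB9 and ATF3 named whatever their values. Cell type markers were named as a check of the cell line.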

Additional observations from a re-analysis of the deposited data

How the results depend on the processing

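The number of the 39 genes called was 1 with TMM and with RLE scaling, 0 with upper-quartile scaling, 0 with at least 10 counts required in every library, 5 with DESeq2 and 8 without a filter on low counts, all lower, beside 5.08% of all genes with DESeq2 and 4.88% without the filter. Leaving out 1 library at a time gave 0 to 26 calls, 0 (control 1) beside 1.74% of all genes and 26 (chaetocin 1) beside 17%, and the remaining lone library was assumed to vary like the other group. The causes of these differences were not tested. Replicate numbers 1 and 2 occur in both groups, and no label ties a number to a shared culture or batch. The log2 differences between replicates correlated across genes with r = 0.123 between the groups. With 2 pairs, this value cannot decide whether equal numbers share a culture or batch. Replicate 2 was lower than replicate 1 in 19 of the 24 ATF4 targets in the controls and in 23 with chaetocin. For the 18 hypoxia genes these counts were 18 and 16, and for all 16416 genes 8013 and 8170. Whether the replicates were paired was not tested. A replicate block gave 16 calls, all lower (2 regulators, 10 ATF4 targets and 4 ER targets), beside 12.7% of all genes, and medians of -0.38 for the ATF4 and -0.52 for the ER targets. The medians kept their signs in all other settings, with -0.69 to -0.067 for the ATF4 and -0.61 to -0.30 for the ER targets without 1 library, whereas their difference ran from -0.084 to 0.29. Without DDIT4, VLDLR, STC2, NUPR1 and WARS1 the ATF4 median was -0.29, and without HERPUD1 the difference of the medians was 0.098. With upper-quartile scaling the log2 fold changes of EIF2AK1, CEBPB, NUPR1 and SDF2L1 changed sign to 0.022, 0.050, 0.020 and 0.066, and with the stricter filter that of SDF2L1 to 0.011. Without 1 library, a change of sign occurred in 14 genes, whose fold changes ran from -0.099 to 0.22 (EIF2AK2), from -0.45 to 0.082 (ERN1), from -0.94 to 0.098 (ATF4), from -0.45 to 0.30 (CEBPB), from -0.50 to 0.17 (CEBPG), from -0.14 to 0.20 (DDIT3), from -0.68 to 0.39 (NUPR1), from -0.090 to 0.52 (PPP1R15A), from -1.42 to 0.059 (CHAC1), from -0.82 to 0.0049 (ASNS), from -0.43 to 0.036 (PHGDH), from -0.68 to 0.13 (MTHFD2), from -1.17 to 0.032 (SLC7A5) and from -0.17 to 0.14 (SDF2L1). The common biological coefficient of variation between replicates was 16.8%.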

Other observations

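A list of 15 genes held subunits and partners of eIF2, the proteases that cleave ATF6, and also ATF6B and RTCB. It gave 0 calls with edgeR and 0 with DESeq2, against 1.85% and 5.08% of all genes. Of its genes, 0 had an unadjusted p under 0.05 (edgeR), against 20.3% of all genes. The median log2 difference over the 15 genes was -0.16 for chaetocin 1 against control 1 and -0.25 against control 2. For chaetocin 2 it was -0.20 and -0.30. All 15 fold changes were below 0, as were 49.1% of those of all genes, with a median of -0.24 on the log2 scale, and in 10 of the 15 both chaetocin libraries lay below both controls, against 26% of all genes. Control 2 minus control 1 gave a median over this list of 0.067. In the chaetocin libraries its medians were -0.17 and -0.26 against the control mean.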
